A study of Homo sapiens with 3 samples.

Results

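The retinoblastoma-type pocket proteins, the MuvB core complex and the activators that join it were followed as 10 genes: RB1, RBL1 and RBL2 (the pocket proteins pRB, p107 and p130), LIN9, LIN37, LIN52, LIN54 and RBBP4 (the MuvB core), and MYBL2 and FOXM1 (the transcription factors B-MYB and FOXM1). They were taken by gene symbol from the deposited expression table, each symbol matched 1 row, and they make up 10 of its 58039 genes. All 10 passed the filter for testing, a mean of at least 1 FPKM (fragments scaled to transcript length and library size), as did 13112 genes in all. RNA came from T47D, a luminal human breast cancer line that expresses the estrogen receptor, in which ERINA, a long noncoding RNA, was knocked down by short hairpin RNAs brought in by lentivirus, with puromycin selection of stable cells. There were 3 libraries: 1 control, and 2 of the ERINA knockdown genotype, made with different hairpins named shRNA1 and shRNA2. The control carries shCtrl in its description and None in its shRNA label, so whether it carried a control hairpin is not settled by the labels. Each condition is a single stable population, and p-values measure only the spread between the hairpin libraries, which holds any difference between hairpins. The test used, limma, draws the spread of each gene toward that of other tested genes, so the SE is not that gene's own spread alone.

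Pocket proteins restrain cell cycle genes. In resting cells p130 or p107 binds E2F4 or E2F5 with a DP partner and the MuvB core, which together form the repressor complex DREAM. Phosphorylation by cyclin-dependent kinases takes the complex apart, and the freed MuvB core then binds B-MYB and later FOXM1 to activate genes of G2 phase and mitosis, while pRB acts mainly by binding the activating E2F proteins. E2F sites mark promoters of G1/S genes, and the cell cycle genes homology region (CHR), a MuvB contact read by LIN54, marks many G2/M promoters.

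The targeted RNA, listed as LINC00992, for which RefSeq gives ERINA as a synonym, measured 63.4 FPKM in the control against 5.21 and 8.91 FPKM with the hairpins. Both hairpin intervals lay below the control interval of 38.4 to 88.5 FPKM. The log2 change of LINC00992, on the scale defined below, was -3.12 (SE 0.33). Its limma adjusted p (Benjamini-Hochberg) over all tested genes was 0.0816, so the targeted RNA itself was not called. Total FPKM ran from 790290 to 860240 per library. All 10 luminal markers had a mean of at least 1 FPKM, summing to 8953 to 10817 FPKM per library. The 7 immune and endothelial markers summed to 0.0322 to 0.344 FPKM, with CD3E at 0 in each library. The 6 fibroblast markers summed to 3.99 to 6.16 FPKM, with COL3A1 at 0 in each library, and the 6 basal markers to 8.404 to 16.9 FPKM. Basal and fibroblast sums were highest in the control. COL1A1 (5.16, 1.65 and 2.10 FPKM) made up most of the fibroblast sum there, and PDGFRB was also lower with both hairpins. COL1A2, DCN and LUM were higher with both. ITGA6 (10.8, 4.55 and 5.58 FPKM) and LAMB3 (3.70, 1.72 and 2.07) made up most of the basal sum in the control. KRT5, KRT14, KRT17 and TP63 were neither lower nor higher with both hairpins. The part of these markers in the results was not tested.

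Promoter sequence is shown for MYBL2, the member with the largest change, and for RBL1 and LIN52, which carry a similar E2F-type word but lay far closer to the control. Each run is the 150 bases before the annotated transcript start from RefSeq (GRCh38.p14), 5′ to 3′ on the gene's strand, with E2F-type words in capitals.
MYBL2: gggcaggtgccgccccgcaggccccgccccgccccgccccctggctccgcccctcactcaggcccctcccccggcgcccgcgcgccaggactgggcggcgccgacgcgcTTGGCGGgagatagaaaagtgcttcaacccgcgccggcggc
RBL1: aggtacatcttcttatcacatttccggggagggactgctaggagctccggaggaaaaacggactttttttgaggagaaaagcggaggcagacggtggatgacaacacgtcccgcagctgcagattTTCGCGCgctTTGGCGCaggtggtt
LIN52: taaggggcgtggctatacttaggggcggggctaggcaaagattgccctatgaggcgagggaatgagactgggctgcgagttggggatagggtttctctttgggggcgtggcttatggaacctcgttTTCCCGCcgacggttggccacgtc

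These runs lie at chr20:43666964-43667113 on the plus strand for MYBL2, chr20:37095998-37096147 on the minus strand for RBL1 and chr14:74084806-74084955 on the plus strand for LIN52. In MYBL2 the word TTGGCGG begins 41 bases before the RefSeq start. The GENCODE span of the gene begins earlier, at 43667019, within the printed run, and the word lies inside that span. RBL1 holds TTCGCGC at 25 bases and TTGGCGC at 15 bases before its start, and LIN52 holds TTCCCGC at 24 bases. The 8 E2F-type words searched on both strands have the form TTNNCGN with C or G at each N, and the CHR words were TTTGAA or TTCGAA. In the full windows, 250 bases before to 50 after a start, 9 of the 10 genes had an entry, with 15 windows among them. An E2F-type word stood in 8 of these 15 windows, those of MYBL2, RBL1, LIN52, RBBP4, LIN54 and 1 of 3 windows of LIN9, against 23.7% of all 35116 windows in the table and 35% of those of tested genes. A CHR word stood in 5 of the 15, in windows of LIN9, LIN54, RBL2 and LIN37, against 16.4% of all windows and 11.6% of those of tested genes. The paired windows of LIN54 and of RBBP4 overlap, so the same words are counted in both. The RB1 window belongs to a start inside the gene. The windows of LIN54 and RBL2 and the printed run of LIN52 also lie wholly inside the GENCODE spans of those genes. So do the LIN9 windows that hold its E2F-type and CHR words and the LIN37 window that holds its CHR word. Positions before a start thus refer to the RefSeq starts, which can differ from the GENCODE gene starts. A match is a run of letters and not a measured binding site. MYBL2 and RBL1 each hold E2F-type words, though not the same ones, and differed widely in their change. A link between these words and the changes was not tested.

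MYBL2, which encodes the B-MYB subunit of the activating MuvB complex, fell sharply with both hairpins. The control held 43.3 FPKM (deposited interval 28.3 to 58.4), against 6.53 with shRNA1 (3.76 to 9.29) and 8.01 with shRNA2 (4.73 to 11.3). Both hairpin libraries were far below the control and close to each other, with no overlap of either interval with that of the control. Neither the confidence level of these intervals nor the software behind them is settled by the labels or headers. The hairpin mean was 7.27 ± 1.05 FPKM (SD, n = 2), 5.97-fold below the control, and the log2 change, computed here and below on log2(FPKM + 0.5), was -2.50 (SE 0.16); limma over all tested genes gave an adjusted p (Benjamini-Hochberg) of 0.0362. The call was lost in limma without the mean-variance trend (adjusted p of 0.0980) and with no filter on low genes (0.227); over the alternatives the adjusted p ran from 0.000571 to 0.227. Only 0.267% of the tested genes were called lower by this rule and 0.0839% higher. MYBL2 had the fifth lowest change of 11546 tested protein-coding genes, and the gene (chromosome 20, 43667019 to 43716496, plus strand, GRCh38) overlaps no other gene of GENCODE release 29. In RNA from a whole culture, fewer cells in cycle and less of this RNA per cell cannot be told apart.

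**Figure D1:**
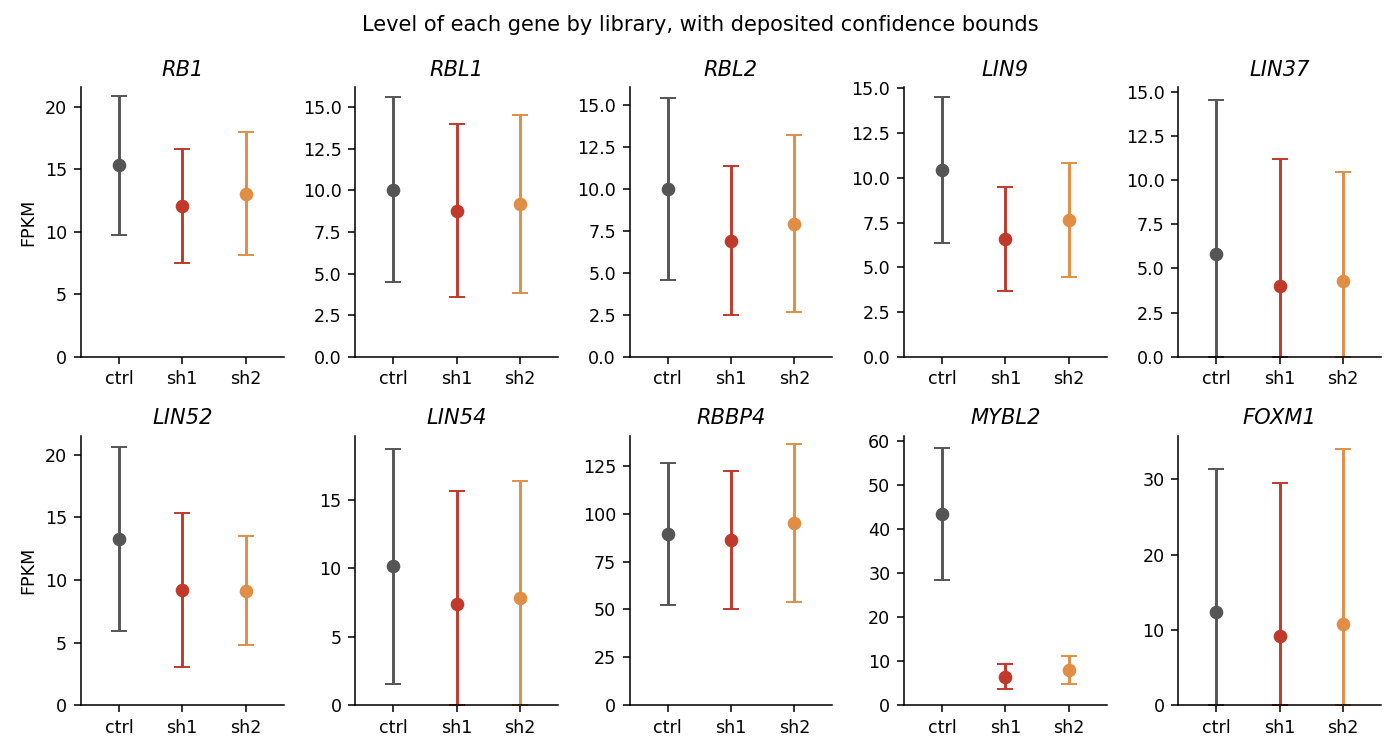
FPKM of each of the 10 genes in the control (ctrl), shRNA1 (sh1) and shRNA2 (sh2) libraries; points are single libraries and bars the deposited confidence bounds, with a separate linear axis from 0 per gene. MYBL2 is the gene whose hairpin intervals, reaching up to 9.29 and 11.3, lie clear of the control interval, which starts at 28.3.

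Among the 10 genes MYBL2 alone was called by limma over all tested genes; 0 were called higher, and at an unadjusted p under 0.05 limma gave 6 lower and 0 higher, where 15.9% of all tested genes were lower and 13.7% higher. By the deposited intervals also, MYBL2 was the 1 member with both hairpins clear of the control, a state found for 0.221% of tested genes on the lower side and 0.0839% on the higher. The hairpin comparisons share the control library. As a description, 9 of the 10 were lower than the control with both hairpins, and 0 were higher with both, against 42.6% lower and 42.4% higher among all tested genes and 44.9% lower among tested protein-coding genes. The median log2 change of the 10 was -0.40, and it was 0.00 over all tested genes. With protein-coding genes tested alone, limma called 3 of the 10 lower, namely MYBL2, LIN52 and LIN9, where 11.3% of protein-coding genes were called lower and 7.11% higher.

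FOXM1, the forkhead factor that joins MuvB in G2, was not called, and its values can hardly be read for a change. It was at 12.3 FPKM in the control, with 9.19 for shRNA1 and 10.8 for shRNA2. The hairpin libraries were somewhat lower, but the deposited intervals started at 0 in each library and reached 31.4, 29.5 and 34.1 FPKM, so they overlap over nearly their whole range. Its log2 change was -0.30 (SE 0.14), with a limma adjusted p (Benjamini-Hochberg) of 0.250. The wide bounds stand beside a deposited locus of 995 kb that FOXM1 shares with 28 other listed genes, whereas the gene spans 19.5 kb (chromosome 12, 2857681 to 2877155, minus strand). Its first bases overlap RHNO1 on the plus strand, whose levels were 45.9 FPKM (control), 34.1 (shRNA1) and 35.8 (shRNA2), and its far end overlaps ITFG2, at 4.34, 4.29 and 4.12 FPKM. Whether reads were assigned by strand is not given in the sources used here, so reads of FOXM1 and RHNO1 may not have been told apart. MYBL2 stood 3.52-fold above FOXM1 in the control, and the ratio was 0.710 with shRNA1 and 0.744 with shRNA2.

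The pocket protein genes were each somewhat lower with both hairpins and none passed the test. RB1 (chromosome 13, 48303726 to 48599436), which encodes pRB, was at 15.3 FPKM in the control, 12.1 under shRNA1 and 13.04 under shRNA2, a log2 change of -0.28 (SE 0.11). RBL2 (chromosome 16, 53433977 to 53491649), which encodes p130, the pocket protein most abundant in resting cells, had 9.98, 6.91 and 7.92 FPKM, and its log2 change was -0.41 (SE 0.14). RBL1 (chromosome 20, 36996349 to 37095995), which encodes p107 and is itself a gene of cycling cells, had 10.04, 8.79 and 9.19 FPKM, and its log2 change was -0.15 (SE 0.11). RB1 overlaps LPAR6 and RCBTB2, and RBL2 overlaps AKTIP, each on the other strand; the deposited RB1 locus ends at 48481986, short of the annotated end. In all 3 genes the control was the highest library, shRNA1 the lowest, and the intervals of the 3 libraries overlapped. The limma adjusted p (Benjamini-Hochberg) was 0.197 for RB1, 0.161 for RBL2 and 0.414 for RBL1.

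The makeup of the pocket protein transcripts moved little. RB1 made up 43.3% of their summed FPKM in the control, with 43.4% for shRNA1 and 43.3% for shRNA2. RBL1 made up 28.4%, 31.7% and 30.5%, and RBL2 28.2%, 24.9% and 26.3%. RBL1 and RBL2 were thus level in the control, and RBL1 stood above RBL2 in both hairpin libraries, by less than the width of their intervals.

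Within the MuvB core, the 4 LIN genes were lower with both hairpins and RBBP4 was level. LIN9 (chromosome 1, 226231149 to 226309869), a core subunit through which MuvB binds B-MYB, was at 10.4 FPKM in the control (6.36 to 14.5), 6.56 with shRNA1 (3.65 to 9.48) and 7.64 with shRNA2 (4.47 to 10.8). LIN52 (chromosome 14, 74084796 to 74201235), the subunit that docks p107 or p130 once the kinase DYRK1A has phosphorylated it, was at 13.3, 9.22 and 9.16 FPKM. Both genes were lower in each hairpin library than in the control, with overlapping intervals. The log2 change was -0.53 (SE 0.15) for LIN9 and -0.51 (SE 0.11) for LIN52, with limma adjusted p (Benjamini-Hochberg) of 0.122 and 0.0965 over all genes, and 0.0489 and 0.0339 with protein-coding genes tested alone.

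LIN54 (chromosome 4, 82909973 to 83012926), the subunit that contacts CHR DNA, was at 10.1 FPKM in the control, 7.40 under shRNA1 and 7.80 under shRNA2. LIN37 (chromosome 19, 35748361 to 35754519), a subunit needed for repression by DREAM, was at 5.81, 4.02 and 4.29 FPKM. Both genes were again highest in the control, with log2 changes of -0.39 (SE 0.12) and -0.44 (SE 0.14) that did not pass limma (Benjamini-Hochberg adjusted p of 0.135 and 0.145). Their deposited bounds were wide: the LIN37 interval started at 0 in each library and that of LIN54 in both hairpin libraries. LIN54 shares its deposited locus with 5 other listed genes and LIN37 with 7, and LIN37 overlaps the protein-coding entry AD000671.1 on the same strand.

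RBBP4 (chromosome 1, 32651142 to 32686211), a histone-binding protein that also serves in several other chromatin complexes, was at 89.3 FPKM in the control, with 86.2 for shRNA1 and 95.2 for shRNA2. The hairpin libraries lay on either side of the control, and the log2 change of 0.02 (SE 0.10; limma adjusted p, Benjamini-Hochberg, of 0.901) turned to -0.056 once library totals were made equal. That scaling shifts the median of all genes by -0.07. The paralog RBBP7 was at 206, 212 and 217 FPKM, and division of reads between such close copies is uncertain; RBBP4 also overlaps SYNC on the other strand. RBBP4 exceeded LIN9 8.55-fold in the control, 13.1-fold under shRNA1 and 12.5-fold under shRNA2.

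**Figure D2:**
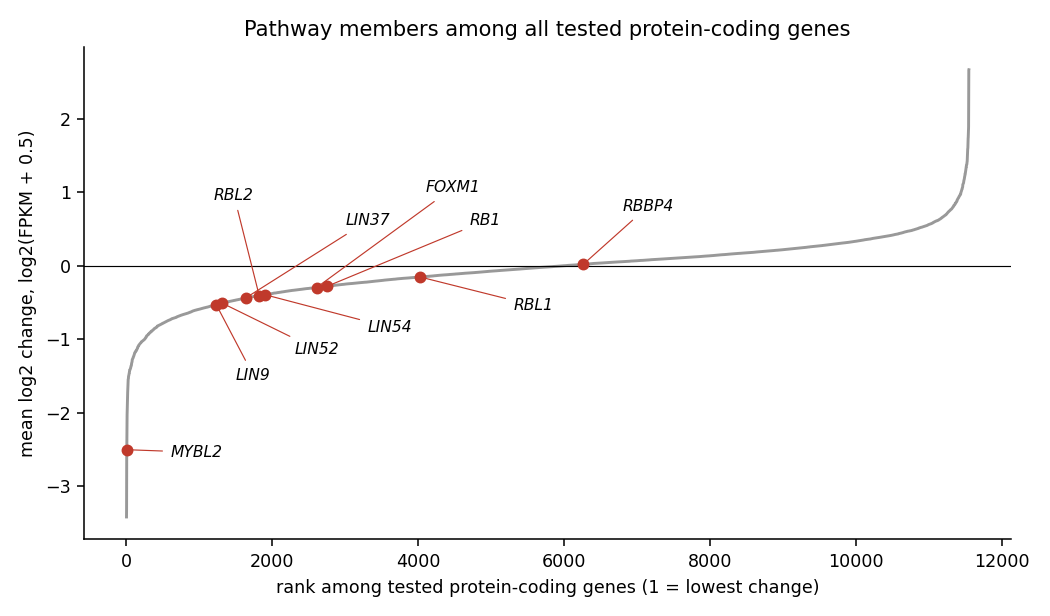
Mean log2 change over both hairpins (vertical axis, log2(FPKM + 0.5) scale) of all 11546 tested protein-coding genes ordered from lowest to highest (horizontal axis, rank), as a grey line with the 10 genes as red points. MYBL2 stands at rank 5, the 4 LIN genes between ranks 1231 and 1897, and RBBP4 at rank 6262 near the middle.

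By level, the control order was RBBP4, MYBL2, RB1, LIN52, FOXM1, LIN9, LIN54, RBL1, RBL2 and LIN37. The intervals of RBBP4 and MYBL2 overlapped there, and those of the other 8 all overlapped each other. MYBL2 overlapped FOXM1 alone among those 8, through the wide interval of FOXM1. With the hairpins MYBL2 dropped from rank 2 to rank 9 with shRNA1 and rank 6 with shRNA2, and its interval then overlapped those of all 8. RBBP4 stood above all others in both hairpin libraries. MYBL2 was 4.15-fold above LIN9 in the control and level with it in the hairpin libraries, with ratios of 0.994 and 1.05.

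Among 9 of the 10 genes the level was lower with shRNA1 than with shRNA2, LIN52 being the exception at a ratio of shRNA2 to shRNA1 of 0.994. LINC00992 too was lower with shRNA1. The ratio was 1.23 for MYBL2, 1.17 for FOXM1 and 1.16 for LIN9, and the hairpin intervals overlapped in each of the 10 genes. Of all tested genes 52.2% were lower with shRNA1 than with shRNA2, and 70.8% of those lower than the control with both hairpins. With 1 library per hairpin this difference has no test.

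The other MYB family genes stood higher in the hairpin libraries. MYB, the family's founding oncogene and an estrogen-responsive gene in luminal breast cells, was at 4.31 FPKM in the control (2.14 to 6.48), 10.003 with shRNA1 (5.60 to 14.4) and 7.98 with shRNA2 (4.32 to 11.6). MYBL1, which encodes A-MYB, was at 16.1, 19.9 and 20.2 FPKM. Both were lowest in the control, with intervals that overlap. The log2 change was 0.97 (SE 0.18) for MYB and 0.31 (SE 0.09) for MYBL1, with limma adjusted p (Benjamini-Hochberg) of 0.0891 and 0.139 over all genes and 0.0126 and 0.0922 with protein-coding genes alone. MYBL2 made up 68.0% of the summed FPKM of the 3 family genes in the control, with 17.9% for shRNA1 and 22.1% for shRNA2. The order within the family thus changed from MYBL2 above MYBL1 in the control to MYBL1 above MYBL2 with either hairpin.

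The E2F and DP partners of DREAM divided, and none of the 4 passed limma over all genes. E2F4, the main repressor E2F, was at 22.6 FPKM in the control, 27.1 under shRNA1 and 23.6 under shRNA2 (log2 change 0.16, SE 0.12). E2F5, its close relative, was at 18.2, 37.9 and 30.8 FPKM (0.89, SE 0.16). The dimerization partners were lower, TFDP1 at 45.4, 26.1 and 31.9 FPKM (-0.64, SE 0.15) and TFDP2 at 57.2, 32.6 and 36.8 FPKM (-0.72, SE 0.11). E2F5 was thus higher and both DP genes lower in each hairpin library, and E2F4 near the control. The limma adjusted p (Benjamini-Hochberg) was 0.0865 for E2F5, 0.103 for TFDP1, 0.0837 for TFDP2 and 0.431 for E2F4. With protein-coding genes tested alone the first 3 passed limma (0.00933, 0.0202 and 0.00920), where 11.3% of those tested were called lower and 7.11% higher. The deposited intervals of both hairpins overlapped the control interval in each of the 4 genes.

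Regulators of the pathway were mixed. Of 19 listed, 17 were tested; CCND2 was listed at 0 in each library and CDK6 averaged less than 1 FPKM. Of the 17, 10 were lower and 5 higher with both hairpins, against 42.6% and 42.4% of all tested genes. Their median log2 change was -0.31, and it was -0.062 over the 14 with a mean of at least 5 FPKM. None passed limma over all genes, where 8 lower and 2 higher had an unadjusted p under 0.05, against 15.9% and 13.7% of all tested genes. With protein-coding genes alone 6 lower and 1 higher passed, against 11.3% and 7.11% of those tested, so the counts of higher regulators were near the background. DYRK1A, the kinase that assembles DREAM, was at 32.8 FPKM in the control, with 36.1 for shRNA1 and 35.1 for shRNA2. CCNE2, a cyclin that drives pocket protein phosphorylation, was at 30.1, 12.9 and 15.9 FPKM, and CCNA2, the S phase cyclin, at 43.2, 16.6 and 21.6. The kinase inhibitor genes CDKN1C (2.32, 0.299 and 0.739 FPKM) and CDKN2D (12.1, 3.90 and 4.61) had the largest changes, with log2 values of -1.50 (SE 0.35) and -1.41 (SE 0.16). These inhibitor genes and both cyclin genes were thus lower in each hairpin library than in the control.

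**Figure D3:**
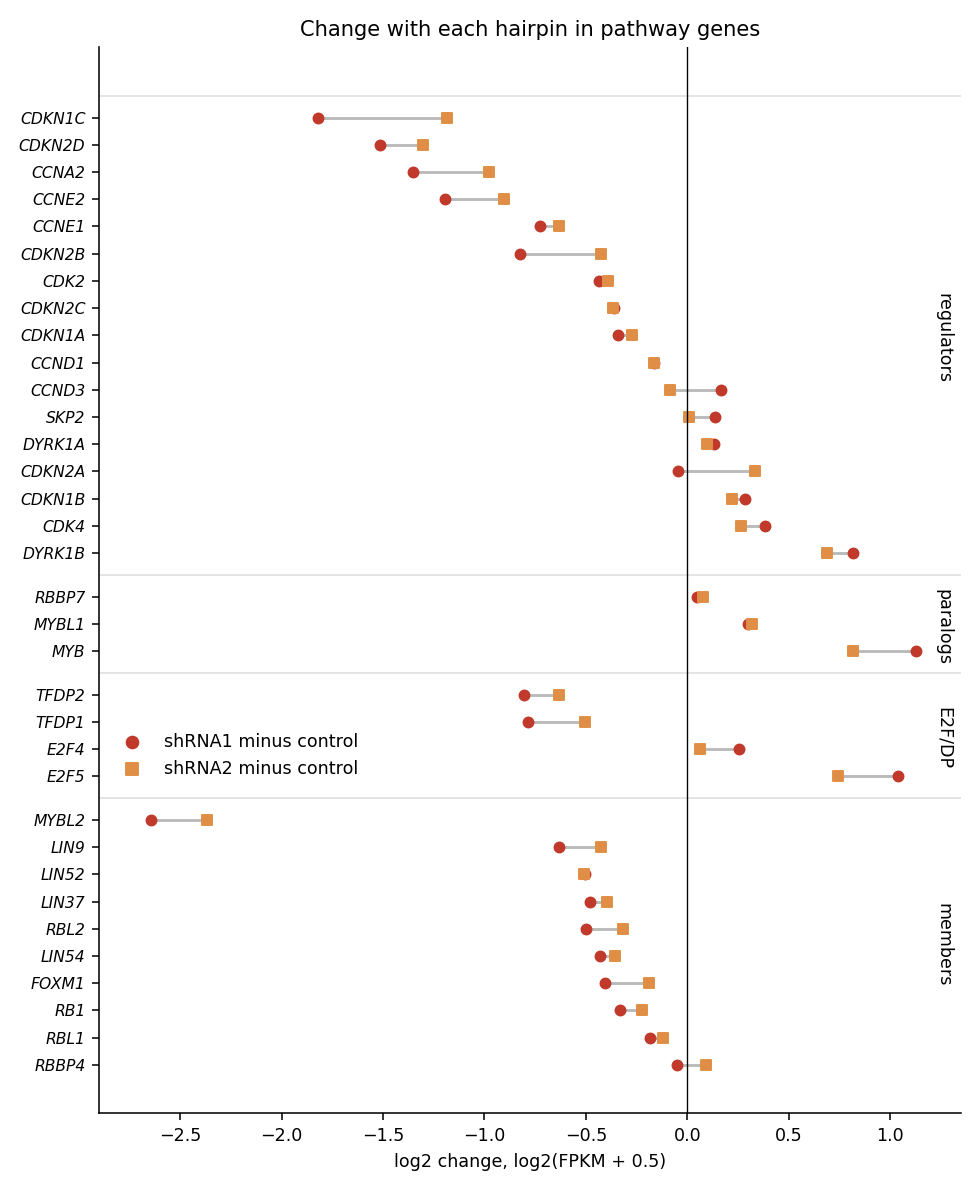
Log2 change on the log2(FPKM + 0.5) scale with shRNA1 (circles) and shRNA2 (squares) against the single control library for the 10 genes, the E2F and DP partners, the paralogs and the 17 tested regulators. MYBL2 lies at -2.64 and -2.37, MYB at 1.13 and 0.82, and E2F5 at 1.04 and 0.75.

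Genes listed here as DREAM targets were lower as a group, in lists chosen with earlier results of these data known. Binding by DREAM was not measured. Of 26 G1/S genes, 25 were lower with both hairpins (96.2%, against 42.6% of all tested genes), with a median log2 change of -0.60, and 1, GINS2, fell by limma over all genes. GINS2, a subunit of the replicative helicase, went from 41.5 FPKM to 6.18 and 7.46 (log2 change -2.53, SE 0.15; limma adjusted p, Benjamini-Hochberg, of 0.0361), with both hairpin intervals starting at 0. RRM2, the small subunit of ribonucleotide reductase, was at 60.3, 19.7 and 24.5 FPKM, and CDC6, an origin licensing factor, at 45.4, 15.5 and 17.8. At an unadjusted p under 0.05 limma gave 23 of the 26 lower and 0 higher, against 15.9% and 13.7% of all tested genes. With protein-coding genes tested alone 18 were called lower, against 11.3% of those tested.

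All 44 G2/M genes, the class activated by B-MYB, FOXM1 and MuvB, were lower with both hairpins, against 42.6% of all tested genes. Their median log2 change was -0.77. None passed limma over all genes, and 43 were lower at an unadjusted p under 0.05, against 15.9% of all tested genes. With protein-coding genes alone 39 were called lower, against 11.3% of those tested. ANLN, the scaffold protein anillin of the dividing cell cortex, had 79.9 FPKM in the control, 18.9 under shRNA1 and 25.7 under shRNA2. KIF20A, which encodes a motor protein of late mitosis, had 41.3, 13.2 and 17.8 FPKM, and PLK1, a kinase of mitotic entry, 37.1, 11.6 and 17.2. CDK1, the mitotic cyclin-dependent kinase, was at 172, 80.3 and 101 FPKM and its partner CCNB1 at 177, 101 and 124. The G2/M median was -0.92 with shRNA1 and -0.63 with shRNA2, and 43 of the 44 genes were lower with shRNA1 than with shRNA2. The G1/S medians were -0.60 and -0.56, with 19 of the 26 genes lower with shRNA1. Among all tested genes lower than the control with both hairpins, that share was 70.8%. Every gene of these 2 lists apart from GINS2 had a smaller mean log2 change than MYBL2.

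**Figure D4:**
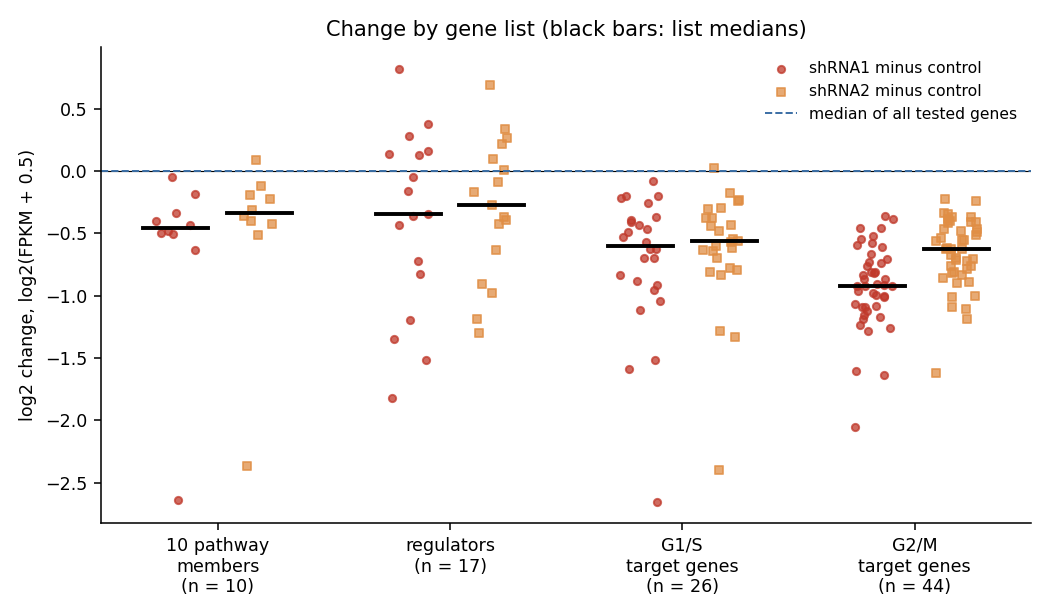
Log2 change on the log2(FPKM + 0.5) scale of each tested gene with shRNA1 (circles) and shRNA2 (squares) against control in 4 lists; black bars are list medians and the dashed line is the median of all tested genes at 0.00. The G2/M medians are -0.92 and -0.63, and the lowest point among the 10 genes, MYBL2, lies below every G2/M gene.

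Promoter words of these lists are given as a description. An E2F-type word stood in 26 of 31 G1/S windows (83.9%) and in 26 of 52 G2/M windows (50%). The share was 23.7% of all windows and 35% of those of tested genes. A CHR word stood in 33 of 52 G2/M windows (63.5%) and in 3 of 31 G1/S windows (9.68%). Its share was 16.4% of all windows and 11.6% of those of tested genes. Over the 9212 tested genes with a window, the median log2 change was -0.02 with an E2F-type word and 0.00 without, and -0.02 with a CHR word and 0.00 without. Across the table, genes with and without these words thus had nearly the same median. Within the G2/M list the median was -0.77 for the 30 genes with a CHR word and -0.84 for those without.

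The genes closest in pattern to MYBL2 were sought among tested protein-coding genes by the Euclidean distance between their pairs of log2 changes. GINS2 was nearest at 0.04, and it was the 1 gene within 0.1. The next were CTD-2116N17.1 at 0.28, PLCB1, a phosphoinositide phospholipase, at 0.43, AC006538.4 at 0.57, and SAA2, an acute phase apolipoprotein, at 0.62. FOXM1 had 438 genes within 0.1, the nearest being RPE, UBXN7, PCDHB13, C4orf46 and EIF5, so its pattern was common in the table. The likeness rests on 3 libraries that share 1 control.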

How the data were processed

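RNA sequencing of 3 libraries was analysed from 1 deposited table. Its values are FPKM with a lower and an upper confidence bound per library, per the file headers; the confidence level, library kit and fragment numbers, and whether libraries were scaled to each other, are not given in these sources, so depth is unknown and the deposited bounds are the measure of precision within a library. The submitters' processing notes name STAR, RSEM and the build GRCh38 without versions or roles. The column layout, per the file headers, is that of Cufflinks or Cuffdiff output, so the software that made the FPKM values and their bounds, and how the bounds were computed, is not settled by these sources. Gene types and coordinates came from GENCODE release 29, which held 57435 of 58039 identifiers (99%) and may not be the authors' release. All 10 genes had status OK in each library.

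Log2(FPKM + 0.5) of 13112 genes, those averaging 1 FPKM or more, was fitted with limma 3.58.1 in R 4.3.3 (lmFit, eBayes with a trend), ERINA knockdown against control, with 1 residual degree of freedom, Benjamini-Hochberg adjustment and a threshold of 0.05. The control has no repeat and is assumed to vary like the hairpin libraries. This scale understates changes of low genes; ratios of FPKM have no pseudocount. Named genes are the 10 members, E2F and DP partners and paralogs, DYRK1A, CCNE2, CCNB1 and CDK1, in each list those past the threshold and the 3 with the largest change, and the 5 nearest to MYBL2 and to FOXM1. Members and lists were chosen with earlier results of these data known. Alternatives were other pseudocounts and filters, scaling to the same total, eBayes without trend or robust, protein-coding genes alone, and each hairpin alone. Python 3.11.15 and matplotlib 3.10.9 were used for tables and plots. The values of 1 gene of the lists are not reported here.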

Additional observations from a re-analysis of the deposited data

How the results depend on the processing

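The control has no repeat, so nothing here measures its own spread, and the number of limma calls over all genes, 11 higher and 35 lower, moved widely with settings. It was 65 and 111 after scaling to equal library totals, 430 and 595 with robust eBayes, 821 and 1299 with protein-coding genes tested alone, and 0 and 0 with no filter on low genes, where limma gave 2113 higher and 2926 lower at an unadjusted p under 0.05. Without the trend 6 genes were called higher. Of the 10 genes, 1 was called lower; this became 3 with protein-coding genes alone, 0 without the trend (6 at an unadjusted p under 0.05) and 0 with no filter (4 at an unadjusted p under 0.05). The cause was not tested. The log2 change of RBBP4 turned to -0.056 with the same total. Over all alternatives MYBL2 stayed between -2.64 and -2.37. The regulator median moved to -0.062 at a mean of at least 5 FPKM, over fewer genes, and to -0.38 with the same total, and the G1/S median to -0.67 with the same total, a scaling that shifts all genes. With each hairpin alone the G1/S median ran from -0.60 to -0.56. No paired analysis was possible because a single control library stands against both hairpin libraries. LIN37 had no value at a mean of at least 5 FPKM.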
